A study of Mus musculus with 2 samples.

Results

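Beta cells of the pancreatic islet keep their insulin-making identity through a small network of transcription factors, and 10 genes of that network are described here: Pdx1, Nkx6-1, Nkx2-2, Neurod1, Isl1, Pax6, Foxa2, Rfx6, Mafa and Mnx1. They were taken by symbol from the 27998 gene rows of the count matrices, and 10 of 10 were found. The mice were C57BL/6J wild-type animals, an inbred strain in which a fat-rich diet raises body weight and blood glucose. For 6 weeks after weaning, 1 group ate regular chow and the other a 60% high-fat diet (HFD). Their islets were picked by hand, cultured overnight, dispersed with trypsin and profiled by droplet sequencing of RNA 3′ ends (10x Genomics v2), in which each RNA molecule is counted by its unique molecular identifier (UMI). The cells of 4 chow mice form 1 library and the cells of 5 HFD mice form the other. Neither sex nor exact age is stated in the sources used here, and nothing ties a cell to a mouse. Pairs of values below give chow first and HFD second.

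These factors act at different steps. Pdx1 is a homeodomain protein needed for the pancreas to form and later binds the insulin promoter. Nkx6-1 and Mnx1 are homeodomain proteins that hold the beta cell fate against other endocrine fates, and Nkx2-2 does so together with corepressors. Neurod1 is a basic helix-loop-helix factor that binds E-boxes, the insulin promoter's among them. Isl1, a LIM-homeodomain protein, and Pax6, which has a paired domain and a homeodomain, serve all endocrine types of the islet. Foxa2 is a forkhead factor that opens chromatin for others, Rfx6 is a winged-helix factor of the endocrine lineage, and Mafa is a leucine zipper protein that activates insulin transcription in mature beta cells.

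The start-site regions of 6 of the genes are printed below because the results turn on them. Pdx1, Nkx6-1 and Mnx1 separated beta cells from alpha cells, and Pax6, Foxa2 and Rfx6 were the factors most raised in HFD beta cells. Each sequence is the 250 bases before the most upstream start site in RefSeq (build GRCm38.p6), 5′ to 3′ on the gene's strand. Capitals mark TAAT on either strand (TAAT or ATTA), the core that homeodomains bind, and CANNTG, the E-box core of helix-loop-helix factors.
Pdx1 (chr5:147269847-147270096, plus strand): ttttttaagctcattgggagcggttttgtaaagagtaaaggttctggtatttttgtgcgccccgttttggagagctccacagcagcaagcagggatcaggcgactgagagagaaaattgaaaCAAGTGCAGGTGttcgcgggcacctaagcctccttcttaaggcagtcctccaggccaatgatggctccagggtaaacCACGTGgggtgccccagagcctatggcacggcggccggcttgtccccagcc
Nkx6-1 (chr5:101664712-101664961, minus strand): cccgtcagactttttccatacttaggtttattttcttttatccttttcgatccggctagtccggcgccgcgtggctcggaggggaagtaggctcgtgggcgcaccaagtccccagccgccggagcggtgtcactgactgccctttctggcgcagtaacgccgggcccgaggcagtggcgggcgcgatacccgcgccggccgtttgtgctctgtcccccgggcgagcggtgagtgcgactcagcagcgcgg
Mnx1 (chr5:29478471-29478720, minus strand): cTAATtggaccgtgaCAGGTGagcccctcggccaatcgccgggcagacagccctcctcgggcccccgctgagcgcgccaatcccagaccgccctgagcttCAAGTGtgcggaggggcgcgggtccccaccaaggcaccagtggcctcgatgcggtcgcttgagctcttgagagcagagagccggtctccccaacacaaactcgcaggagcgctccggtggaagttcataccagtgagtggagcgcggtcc
Pax6 (chr2:105668646-105668895, plus strand): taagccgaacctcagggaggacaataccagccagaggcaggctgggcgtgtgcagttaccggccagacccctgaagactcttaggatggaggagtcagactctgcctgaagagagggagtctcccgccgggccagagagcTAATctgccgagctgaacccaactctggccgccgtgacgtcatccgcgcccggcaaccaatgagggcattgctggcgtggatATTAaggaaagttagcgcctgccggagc
Foxa2 (chr2:148046970-148047219, minus strand): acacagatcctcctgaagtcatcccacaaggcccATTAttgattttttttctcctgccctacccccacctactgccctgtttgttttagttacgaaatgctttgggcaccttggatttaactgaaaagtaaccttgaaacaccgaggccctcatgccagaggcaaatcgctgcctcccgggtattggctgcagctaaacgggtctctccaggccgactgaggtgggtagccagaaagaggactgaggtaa
Rfx6 (chr10:51685268-51685517, plus strand): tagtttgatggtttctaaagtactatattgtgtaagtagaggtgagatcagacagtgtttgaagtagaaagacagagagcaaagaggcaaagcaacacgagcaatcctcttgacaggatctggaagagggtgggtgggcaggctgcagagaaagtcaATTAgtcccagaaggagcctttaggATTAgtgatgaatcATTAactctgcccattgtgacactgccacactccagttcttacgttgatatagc
Pax6, Foxa2 and Rfx6 each hold TAAT and no CANNTG in this window, with 2, 1 and 3 copies of TAAT. The Pdx1 window holds 3 CANNTG and no TAAT, the Nkx6-1 window neither, and the Mnx1 window 1 TAAT and 2 CANNTG. RefSeq gives Pax6 2 start sites and Foxa2 3, and the other windows differ: the second of Pax6 and the third of Foxa2 each hold 2 TAAT and 1 CANNTG, and the second of Foxa2 holds neither. Both cores are short and common: 54.9% of 32851 RefSeq windows of this length hold TAAT and 66.2% hold CANNTG, against 6 and 5 of the 9 members that have an entry. No member's window holds TAATTA or the forkhead sequence TGTTTAC, searched on both strands. A match is a string of letters and not a binding site. Mafa had no entry.

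Cells were assigned by hormone RNA alone, so that no factor entered the assignment. A cell was called beta when Ins1 and Ins2 made up at least 20% of its UMIs, otherwise alpha with at least 5% Gcg, otherwise delta with at least 1% Sst, otherwise PP (the pancreatic polypeptide cell) with at least 15% Ppy. This gave 4372 beta, 740 alpha, 447 delta and 199 PP cells in the chow library and 2968, 374, 370 and 154 in the HFD library. Of the markers listed for the endocrine types, apart from the rule's own genes, all but Pou3f4 and Etv1 were highest in their own type. Ucn3 stood at 252 and 218 UMIs per 1000000 (CPM) in chow and HFD beta cells and at 12.7 CPM or less in the other endocrine types. Irx2 stood at 55.4 and 56.2 CPM in alpha cells against 0.431 and 1.14 CPM in beta cells, and Hhex at 227 and 225 CPM in delta cells against 1.09 and 1.58 CPM. Pyy stood at 132284 and 100426 CPM in PP cells, with 90424 and 83243 CPM in delta cells. Pou3f4, listed for delta cells, had 1.58 and 1.06 CPM there but 6.98 and 18.4 CPM in alpha cells. Etv1, listed for PP cells, had 151 and 174 CPM there but 198 and 232 CPM in alpha cells. Few cells lay near a threshold: 32 and 40 had an insulin share between 16% and 24%, and 20 and 11 had a Ppy share between 12% and 18%.

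Levels below are CPM of the summed UMIs of a type in a library, with exact Poisson 95% intervals for the counting error alone. Each diet has 1 library and thus no replicate, so no p-value is given and every difference describes these libraries. Medians were 14653 and 16758.5 UMIs per beta cell in the chow and HFD libraries, 8368 and 10894.5 per alpha cell, 7935 and 9278 per delta cell, and 13999 and 14954.5 per PP cell. Hormone genes took 60.8% and 60.2% of all beta cell UMIs, 28.9% and 31.0% in alpha cells, 33.1% and 29.5% in delta cells, and 57.5% and 54.5% in PP cells. A gene's CPM is therefore lower in beta and PP cells for the same share of the remaining RNA. For that reason the ratios between types are given relative to the median gene, and some levels are also given per 1000000 UMIs outside the hormone genes.

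Nkx6-1 had a clear beta cell preference. Its level in beta cells was 125 CPM (123 to 128) on chow and 129 CPM (126 to 132) on HFD. In PP cells it was 44.7 and 38.3 CPM, in alpha cells 18.6 and 12.7 CPM, and in delta cells 15.3 and 14.3 CPM. Beta cells were above every other type in both libraries with no overlap of intervals, PP cells came next, and alpha and delta cells did not differ beyond their intervals. Against the median gene, Nkx6-1 was higher in beta than in delta cells by a log2 of 3.74 (3.38 to 4.15) on chow and 3.84 (3.47 to 4.27) on HFD. Over alpha cells the log2 was 3.33 and 3.74, and over PP cells 1.47 and 1.75. Pdx1 and Mnx1 had higher ratios over both of those types in each library, on fewer UMIs there.

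Pdx1 did not follow that order. It stood at 52.2 CPM (50.5 to 53.9) in chow beta cells and 55.6 CPM (53.6 to 57.8) in HFD beta cells, but at 63.2 and 76.5 CPM in delta cells. PP cells had 15.03 and 10.8 CPM, and alpha cells 6.82 and 1.91 CPM. The intervals of neighbouring types did not overlap, so delta cells ranked first by CPM in both libraries. Outside the hormone genes the order of beta and delta cells turned, with beta cells first in both libraries. Relative to the median gene the beta over delta difference was small, a log2 of 0.44 (0.25 to 0.64) and 0.22 (0.05 to 0.40). The difference from alpha cells was large, 3.50 (3.08 to 3.98) and 5.18 (4.29 to 6.48).

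Mnx1 was the rarest of the factors that could be measured. It gave 555 UMIs in chow beta cells, or 8.25 CPM (7.58 to 8.96), and 500 UMIs in HFD beta cells, or 10.0 CPM (9.16 to 10.9). Alpha, delta and PP cells held 6, 5 and 3 UMIs on chow and 2, 2 and 0 on HFD. The 0 in HFD PP cells allows up to 1.249 CPM (3 counts of the total). The pools differ in size, and in CPM chow alpha, delta and PP cells had 0.952, 1.32 and 1.02. HFD alpha and delta cells had 0.478 and 0.531 CPM. Among the endocrine types Mnx1 was thus highest in beta cells in both libraries, with no overlap of intervals. Endothelial cells held 3 UMIs on chow, or 2.33 CPM (0.480 to 6.80), and 0 on HFD.

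Mafa could not be assessed. Its row held 5 UMIs in 4372 chow beta cells and 4 in 2968 HFD beta cells, each in a cell of its own, and 0 in alpha, delta and PP cells. Mafa is known from other work as a marker of adult mouse beta cells. These counts give 0.0743 and 0.0802 CPM. The row was used in no ratio between types or diets, and entered only the count of factors highest in beta cells.

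**Figure D1:**
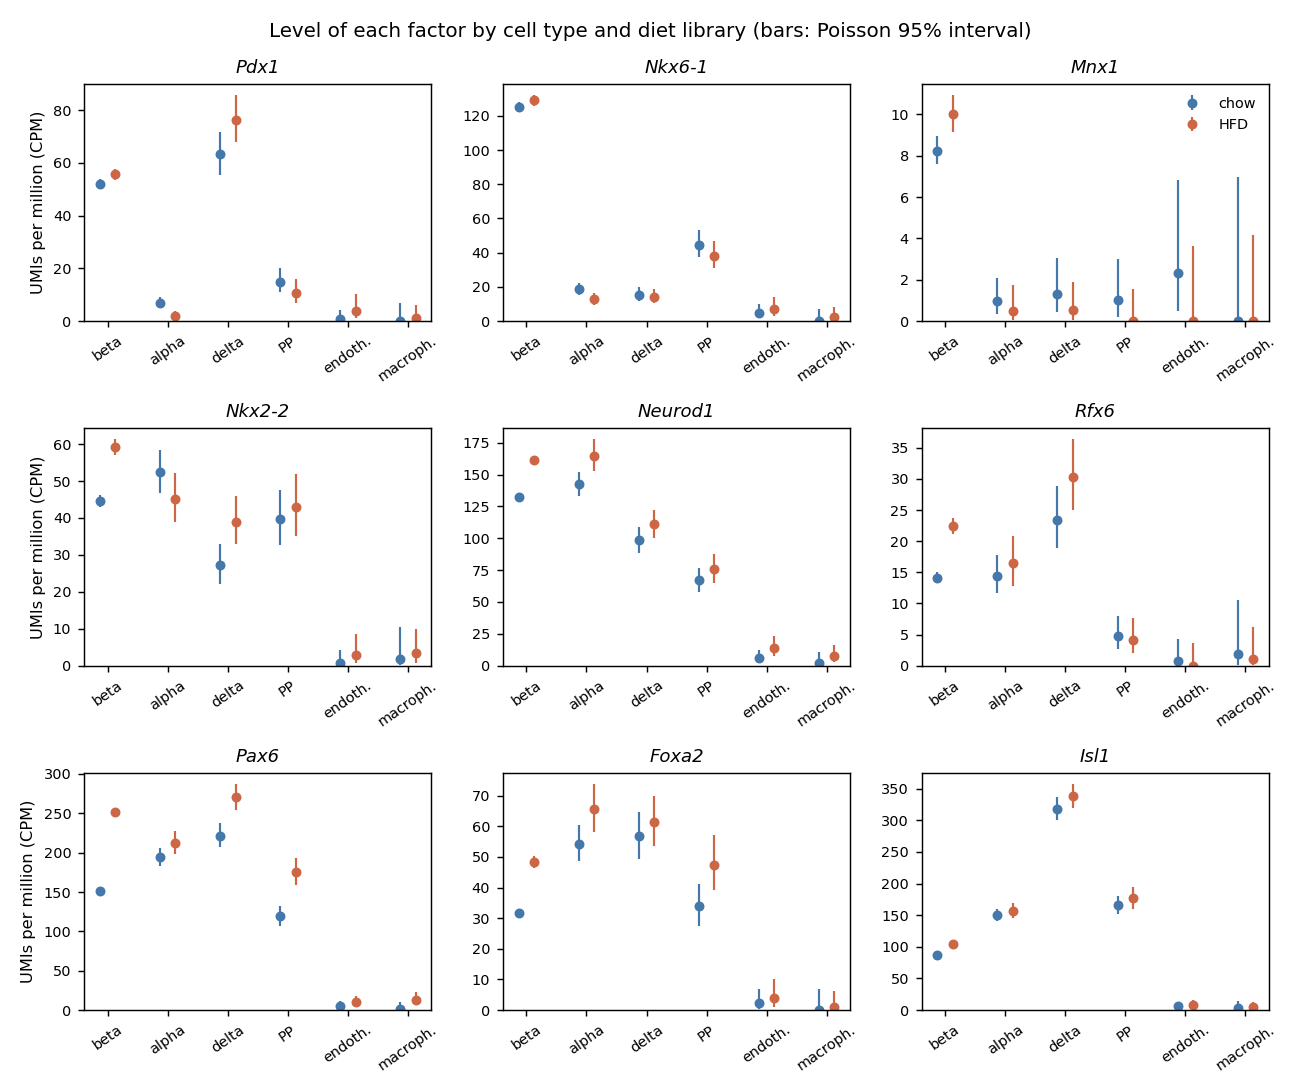
Level of 9 factors (Mafa left out) in 6 cell types. The y axis is CPM on a linear scale that starts at 0, points are the chow and HFD libraries, and bars are exact Poisson 95% intervals. Nkx6-1 and Mnx1 stand highest in beta cells, and Isl1 in delta cells at 318 and 338 CPM. Endothelial cells and macrophages hold at most 13.9 CPM of any factor. Each panel has its own scale, and Mnx1 in chow endothelial cells stands at 2.33 CPM (0.480 to 6.80) on 3 UMIs.

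The other factors were shared among the endocrine types. By CPM Neurod1 was close in beta and alpha cells, at 133 and 142 CPM on chow and 161 and 165 CPM on HFD, with overlapping intervals in both. Outside the hormone genes beta cells came first, with 338 against 200 on chow and 406 against 239 on HFD, and relative to the median gene beta over alpha was a log2 of 0.47 (0.37 to 0.57) and 0.38 (0.26 to 0.49). By CPM it was lower in delta cells (98.3 and 111 CPM) and PP cells (66.9 and 75.8 CPM). By CPM Nkx2-2 ranged from 27.1 to 52.3 CPM over the types of the chow library, with alpha cells first, and from 39.0 to 59.1 CPM in the HFD library, with beta cells first. Outside the hormone genes beta cells ranked first in both, overlapping PP cells on chow.

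Isl1 was the only factor with beta cells last in both libraries by CPM. Delta cells had 318 and 338 CPM, PP cells 166 and 177 CPM, alpha cells 150 and 157 CPM, and beta cells 87.5 and 104 CPM. PP and alpha cells overlapped. Relative to the median gene Isl1 was lower in beta than in delta cells by a log2 of -1.15 (-1.23 to -1.05) and -1.02 (-1.10 to -0.93), and delta cells kept the first rank outside the hormone genes as well.

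Pax6 and Foxa2 were counted in all endocrine types. Pax6 in the chow library was 222 CPM in delta, 194 CPM in alpha, 151 CPM in beta and 120 CPM in PP cells. In the HFD library it was 270 CPM in delta and 252 CPM in beta cells, whose intervals overlapped, then 213 CPM in alpha and 175 CPM in PP cells. Foxa2 lay between 31.6 and 56.6 CPM in the chow library and between 47.5 and 65.5 CPM in the HFD library. By CPM the highest type was 1.86 and 1.54 times the lowest for Pax6 and 1.79 and 1.38 times for Foxa2. Outside the hormone genes Pax6 was highest in beta cells of both libraries, at 385 and 632.

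Rfx6 was low in PP cells. It stood at 23.5 and 30.3 CPM in delta cells, 14.4 and 16.5 CPM in alpha cells, 14.2 and 22.4 CPM in beta cells, and 4.78 and 4.16 CPM in PP cells. The PP levels rest on 14 and 10 UMIs. The beta over PP difference was a log2 of 1.51 (0.80 to 2.43) and 2.36 (1.55 to 3.50) relative to the median gene.

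Counting the 9 measured factors, 3 were at least 2-fold higher in beta than in alpha cells in each library (Pdx1, Nkx6-1 and Mnx1), a threshold that 11.5% and 13.7% of all genes passed. None of the 9 was 2-fold lower, as 7.75% and 10.1% of genes were. Over delta cells 4 factors passed in each library (Nkx6-1, Mnx1, Nkx2-2 and Neurod1), against 10.9% and 11.2% of genes, and Isl1 passed in the other direction, as did 9.51% and 11.5% of genes. Over PP cells 4 passed in the chow library (Pdx1, Nkx6-1, Mnx1 and Rfx6), against 13% of genes. In the HFD library 5 passed, with Neurod1 added at 1.09 after 0.97 in the chow library, against 14% of genes. In the other direction 0 passed, against 8.95% and 10.4% of genes. The count of factors with their highest level in beta cells depended on the scale. By CPM it was 3 and 4 of 10, and outside the hormone genes 8 and 9. Mafa was counted in each on its few UMIs, with beta and alpha intervals that overlapped. By CPM the others were Nkx6-1 and Mnx1 in both libraries and Nkx2-2 in the HFD library. Leaving out the hormone genes raises every other gene in beta cells relative to alpha and delta cells. The share of all genes highest in beta cells was not counted, so these counts show nothing particular to the factors.

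**Figure D2:**
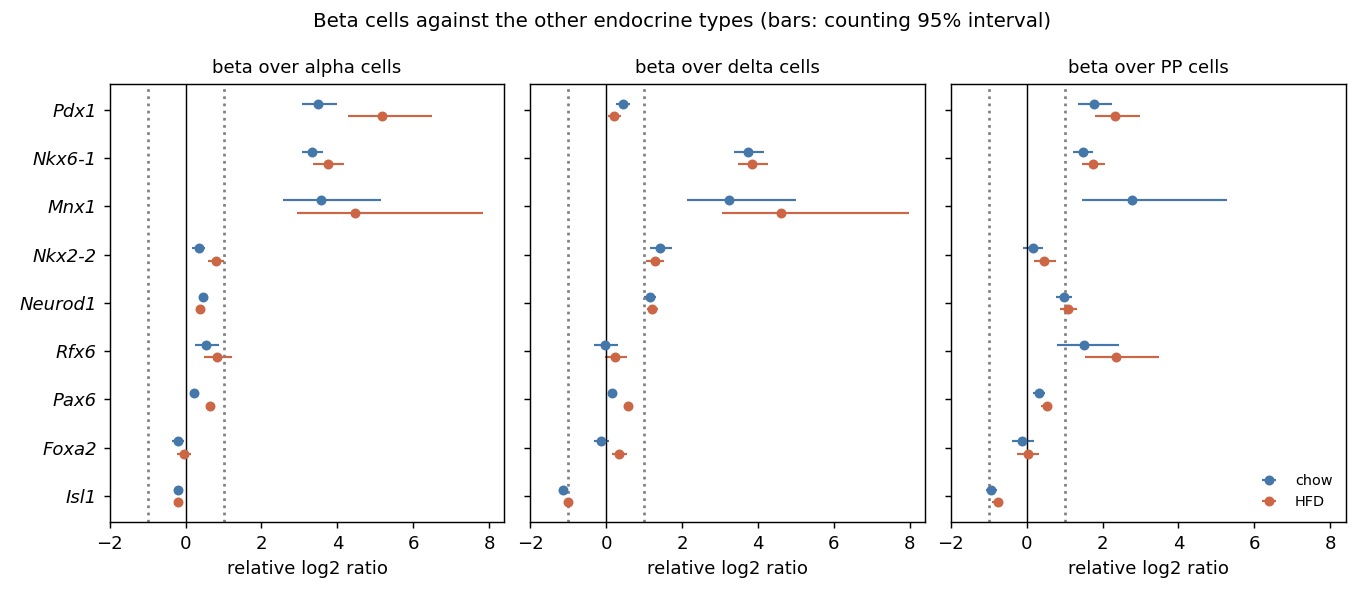
Log2 ratio of beta cells over alpha, delta and PP cells (x axis, relative to the median gene) for 9 factors in both libraries, with counting 95% intervals; dotted lines mark 2-fold. Nkx6-1 and Mnx1 lie right of the line in each panel, Pdx1 in the alpha and PP panels, and Isl1 left of the line in the delta panel. Mnx1 against HFD PP cells is not drawn, since PP cells held 0 UMIs.

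Low levels in droplet data need a background, because free RNA enters every droplet. Insulin RNA in alpha cells was 4.61% and 3.49% of its beta cell level, in delta cells 5.23% and 5.11%, and in endothelial cells, which make no insulin, 4.28% and 4.69%. Nkx6-1 in alpha cells was 14.8% (12.2 to 17.7) and 9.83% (7.36 to 12.9) of its beta cell level, above the insulin share in both. In delta cells it was 12.2% and 11.1%, and in PP cells 35.7% and 29.7%, also above. In HFD mesenchymal cells, however, Nkx6-1 was at 11.9% (4.77 to 24.4; 7 UMIs), and in endothelial cells at 3.71% and 5.37%. Above the insulin share were also Mnx1 in chow endothelial cells (28.2%; 3 UMIs) and Neurod1 in HFD endothelial cells (8.59%). Nkx2-2 in HFD mesenchymal cells was above it as well (22.2%; 6 UMIs). A level above the insulin share is thus not by itself clear of free RNA. Mnx1 in chow alpha, delta and PP cells was at 11.5% (4.23 to 25.1), 15.97% (5.19 to 37.3) and 12.4% (2.56 to 36.3) of its beta cell level, on so few UMIs that these intervals reach down to about the insulin share.

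Pdx1 in alpha cells differed between the libraries in this respect. It reached 13.1% (9.46 to 17.6) of the beta cell level on chow and 3.44% (1.48 to 6.78) on HFD, the latter not above the insulin share. In chow alpha cells with at least 1% Ppy it was 13.9 CPM (8.50 to 21.5, 20 UMIs in 151 cells), and in those with less Ppy 4.73 CPM (2.995 to 7.09, 23 UMIs in 589 cells). The corresponding HFD values were 3.59 and 1.30 CPM, each from 4 UMIs, with overlapping intervals. Chow Pdx1 in alpha cells was thus higher in cells that also carried Ppy, by subsets chosen after the data had been seen.

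Pdx1 in delta cells was far from background, at 121% and 137% of the beta cell level. In the delta cells with the least RNA of other hormones (169 and 134 cells) it was 65.4 and 86.8 CPM, close to the values for all delta cells. Nkx6-1 in those cells was 7.01 CPM (3.20 to 13.3; 9 UMIs) and 11.2 CPM (6.10 to 18.7; 14 UMIs). All delta cells had 15.3 and 14.3 CPM, and the intervals overlapped in both libraries. The remaining factors (Nkx2-2, Neurod1, Isl1, Pax6, Foxa2 and Rfx6) lay above the insulin share in alpha, delta and PP cells of both libraries.

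Within single beta cells the factors were sparse. After each cell was thinned to 4000 UMIs, Pax6 was detected in 45.9% (44.4 to 47.4) of 4348 chow and 64.8% (63.1 to 66.5) of 2968 HFD beta cells. Unthinned shares were 83.9% and 93.5%, at the median depths given above. Macrophages, which lack the factor, had a Pax6 UMI in 0 of 53 chow cells and 4.35% of 69 HFD cells at the same depth.

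The shares of the other factors in thinned beta cells were as follows. Neurod1 was found in 40.5% and 47.9%, Nkx6-1 in 38.3% and 38.6%, and Isl1 in 29.8% and 34.1%. Pdx1 was found in 19.1% and 20.2%, close to each other, and Nkx2-2 in 16.7% and 21.4%. Foxa2 was found in 12.3% and 18.3% and Rfx6 in 5.70% and 9.77%. Unthinned, Pdx1 was seen in 50.4% and 55.0%, Nkx6-1 in 75.2% and 76.7%, Foxa2 in 36.0% and 50.8% and Rfx6 in 18.8% and 29.5%. Nkx6-1 and Pdx1 thus had nearly equal shares in the libraries, while Pax6, Foxa2 and Rfx6 had the widest gaps in proportion.

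A beta cell held UMIs of a mean of 2.12 (chow) and 2.59 (HFD) of the 9 factors at this depth. None was found in 8.92% (8.09 to 9.81) of chow and 4.31% (3.61 to 5.11) of HFD beta cells, and at least 4 in 14.1% and 24.9%. Alpha cells had means of 1.90 and 1.94, delta cells 2.23 and 2.47, and PP cells 1.54 and 1.75. Endothelial cells had 0.161 and 0.192. A beta cell without a UMI of any factor at this depth is not shown to lack them.

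**Figure D3:**
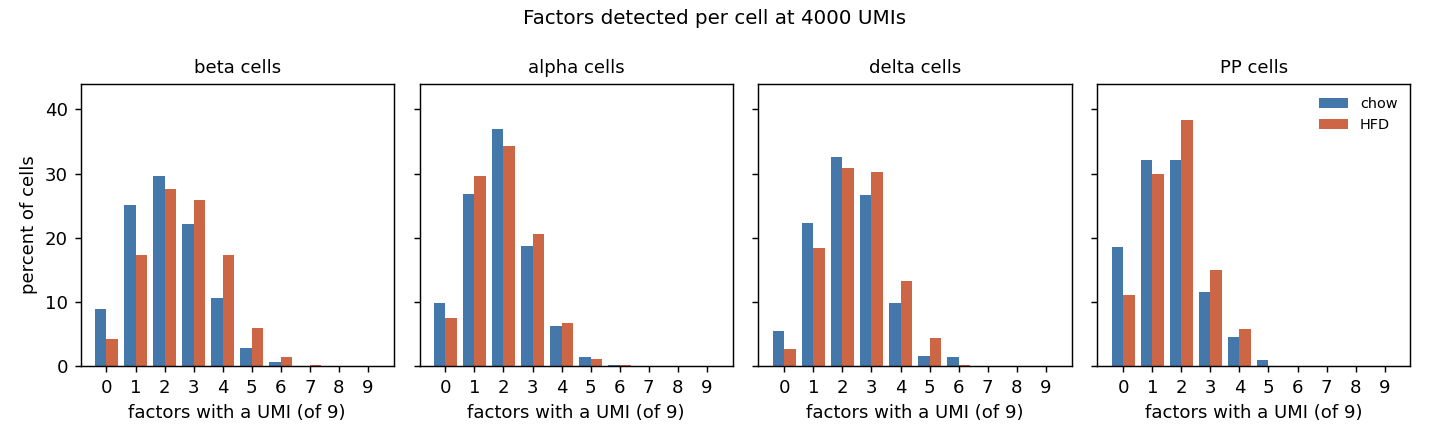
Number of the 9 factors with a UMI per cell (x axis) against the percent of cells (y axis, from 0) after thinning to 4000 UMIs, for 4 endocrine types. In beta cells the HFD bars are shifted to higher numbers, with 4.31% against 8.92% of cells at 0 factors.

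The factors were found together about as often as their separate shares predict. Over the 36 pairs in thinned beta cells, cells with both divided by the product of the shares had a median of 1.07 on chow (0.959 to 1.46) and 1.03 on HFD (0.906 to 1.254). The interval held 1 for 33 and 35 pairs. The variance of the UMI count over its mean in thinned beta cells was 1.251 and 1.22 for Nkx6-1, 1.17 in both libraries for Neurod1, 1.11 and 1.14 for Pax6, and 1.02 and 1.04 for Rfx6, where pure counting gives 1.

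Beta cells were then split by their insulin load. They were put into 4 equal bins by insulin share and levels taken per 1000000 UMIs outside the hormone genes. From the lowest to the highest bin Pdx1 went from 129 to 126 on chow and from 119.7 to 132 on HFD. Nkx6-1 had a ratio of highest over lowest bin of 1.05 and 1.201. Neurod1 had ratios of 0.995 and 1.196. Lower in the cells richest in insulin, with no overlap of intervals in either library, were Foxa2 (ratios 0.811 and 0.822) and Pax6 (0.882 and 0.924). Rfx6 had ratios of 0.785 and 0.943, and its intervals overlapped in both libraries. By total UMIs per cell, the deepest bin was below the shallowest in both libraries for every factor but Mnx1 (ratios 1.07 and 1.19). The ratios were 0.737 and 0.884 for Pax6, 0.761 and 0.789 for Rfx6 and 0.777 and 0.863 for Foxa2. Neurod1 had 0.858 and 0.855, Isl1 0.829 and 0.940, and Nkx2-2 0.867 and 0.891. Pdx1 had 0.906 and 0.914, and Nkx6-1 0.867 and 0.9995. The intervals of these bins were apart for Nkx6-1, Neurod1, Isl1, Pax6 and Foxa2 on chow, and on HFD only for Neurod1 and Pax6. Levels that moved with depth were thus not confined to the factors most raised on HFD.

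High-fat feeding was then compared with chow within each type, the question of the study's design. Pax6 had the highest ratio of the 9 factors in the summed counts of beta cells: 151 CPM (148 to 154; 10174 UMIs) on chow and 252 CPM (247 to 256; 12553 UMIs) on HFD. The median of 12252 genes with at least 50 UMIs in beta cells was itself higher in the HFD library by a log2 of 0.19, so ratios are given relative to that median. On this scale Pax6 was higher in HFD beta cells by a log2 of 0.54 (0.50 to 0.58), or 1.46-fold, which placed it at percentile 94.9 of all genes.

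Rfx6 and Foxa2 were higher too. Rfx6 went from 14.2 CPM (13.3 to 15.1; 952 UMIs) to 22.4 CPM (21.1 to 23.8; 1119 UMIs), a relative log2 of 0.47 (0.35 to 0.60) and percentile 93.0. With cells thinned to 4000 UMIs Rfx6 was at 0.64 and Pax6 at 0.59, so the order of these factors is not firm. Foxa2 went from 31.6 CPM (30.3 to 33.0) to 48.3 CPM (46.4 to 50.3), a relative log2 of 0.42 (0.33 to 0.50) and percentile 91.1. A difference was counted when it passed a relative log2 of 0.32 in either direction. These 3 of 9 measured factors passed it upward in HFD beta cells, as 14.3% of all genes did, and 0 passed it downward, as 20.7% did. At 1.5-fold 0 factors passed, against 4.42% of genes.

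The remaining factors stayed inside that threshold. Nkx2-2 was at 44.6 and 59.1 CPM, a relative log2 of 0.21 (0.14 to 0.29). Neurod1 was at 133 and 161 CPM (0.09, 0.05 to 0.14), Mnx1 at 8.25 and 10.0 CPM (0.09, -0.09 to 0.27) and Isl1 at 87.5 and 104 CPM (0.06, 0.01 to 0.12). The 2 factors below the median gene were Pdx1, at -0.10 (-0.17 to -0.03), and Nkx6-1, at -0.15 (-0.20 to -0.11). Without the centring on the median gene their sign turns, to 0.09 and 0.04, but every gene moves by the same 0.19 on that scale, so both remain below the median gene. The median of the 9 factors was 0.09, and the quartiles of all genes were -0.26 and 0.20.

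**Figure D4:**
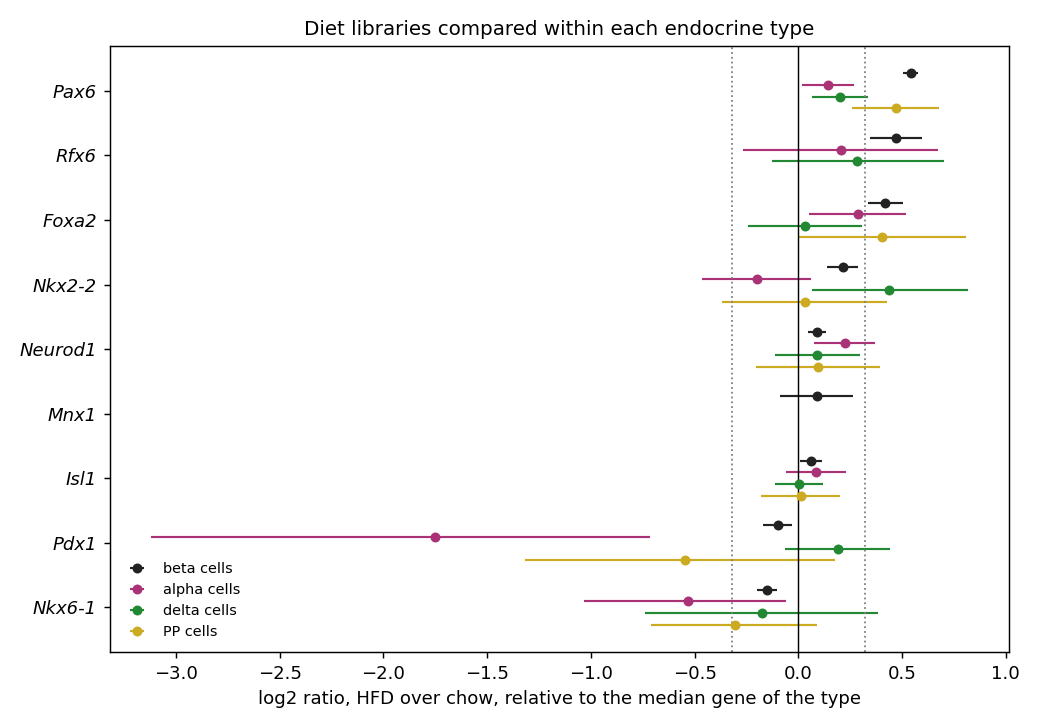
Log2 ratio of the HFD over the chow library (x axis) for 9 factors within beta, alpha, delta and PP cells, relative to the median gene of each type, with counting 95% intervals; dotted lines mark the threshold of 0.32. Pax6, Rfx6 and Foxa2 lie right of the line in beta cells, and Pdx1 in alpha cells lies far left on 43 and 8 UMIs. Values with too few UMIs are not drawn.

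In the other endocrine types the factors past the threshold differed in part. Alpha cells had Pax6 at 194 and 213 CPM, a relative log2 of 0.14 (0.02 to 0.27), and 0 factors past the threshold upward (16.2% of genes). Pdx1 and Nkx6-1 passed downward (15.8% of genes): Pdx1 from 43 to 8 UMIs, a relative log2 of -1.75 (-3.12 to -0.72), and Nkx6-1 from 117 to 53 UMIs, -0.53 (-1.03 to -0.06). Over the same libraries the insulin RNA found in alpha cells was 4.61% and 3.49% of the beta level, and the part of free RNA in these values was not tested.

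In delta cells Nkx2-2 was the 1 factor past the threshold, from 27.1 to 39.0 CPM (0.44, 0.07 to 0.82), against 16% of genes upward. Pax6 there was at 222 and 270 CPM (0.20, 0.07 to 0.34). In PP cells Pax6 went from 120 to 175 CPM (0.47, 0.26 to 0.68) and Foxa2 from 33.8 to 47.5 CPM (0.41, 0.01 to 0.81). These were the 2 factors past the threshold upward, against 20.9% of genes. Pdx1 passed downward on 44 and 26 UMIs (-0.55, -1.315 to 0.175), against 16.2% of genes, with an interval that includes no difference. Pax6 was above the median gene in all 4 endocrine types. Whether its gap differs between types was not tested, since each type has 1 library per diet.

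The beta cells of the libraries also differed in stress RNA: Hspa1a, a heat shock chaperone, stood at 62.4 and 5.29 CPM in beta cells. Among beta cells without an Hspa1a or Hspa1b UMI (2927 and 2842 cells), Pax6 was higher in the HFD library at 0.52 (0.48 to 0.56), Foxa2 at 0.42 (0.32 to 0.52) and Rfx6 at 0.40 (0.26 to 0.55). Among those with such a UMI (1445 and 126 cells) Pax6 was at 0.50 (0.37 to 0.63). Markers of macrophages summed to 39.7 and 62.4 CPM in chow and HFD beta cells, of mesenchymal cells to 11.5 and 41.5 CPM, and of endothelial cells to 28.7 and 37.0 CPM. Those of ductal cells summed to 401 and 214 CPM, of acinar cells to 21.3 and 6.37 CPM, of Schwann cells to 6.39 and 9.50 CPM and of lymphoid cells to 13.1 and 26.3 CPM. The lymphoid sums came almost wholly from Cd79a, with Cd3e, Cd3g and Nkg7 at 0 CPM. The ductal sums came mainly from Krt7 (222 and 141 CPM), Krt18 (92.4 and 55.9 CPM) and Spp1 (86.1 and 16.2 CPM). Each of these was higher in delta cells of both libraries, while Krt19 stood at 0.386 and 0.441 CPM in beta cells. The lymphoid and ductal sums are thus no measure of RNA from those cells. Mgp gave 9.78 and 32.5 CPM of the mesenchymal sums. C1qa gave 19.2 and 22.2 CPM of the macrophage sums, and stood at 82.2 and 77.8 CPM in delta cells. Whether the remaining sums measure RNA from their cells was not tested. The part of these cell types and of the stress RNA in the diet values was not tested.

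The gap in Pax6 was found in each subset of beta cells looked at, which were defined after the data had been seen. In cells with a Pdyn UMI (885 and 409 cells; Pdyn encodes the opioid precursor prodynorphin) Pax6 was at 0.72 (0.63 to 0.81), Rfx6 at 0.70 (0.38 to 1.003) and Foxa2 at 0.58 (0.38 to 0.79). In cells with a Neurog3 UMI (37 and 100 cells; Neurog3 is the factor of endocrine progenitors) Pax6 was at 0.45 (0.15 to 0.78), Rfx6 at 0.90 (-0.15 to 2.37) and Foxa2 at -0.45 (-0.995 to 0.14). In cells with interferon-induced RNA (53 and 24 cells) Pax6 was at 0.60 (0.25 to 0.94) and Foxa2 at -0.34 (-1.28 to 0.49), and Rfx6 had too few UMIs. In cells with at least 0.5% Ppy Pax6 was at 0.46 (0.26 to 0.66), Foxa2 at 0.25 (-0.14 to 0.66) and Rfx6 at 0.04 (-0.57 to 0.67).

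Beta cells that also carried Ppy had another balance of factors. The 114 chow and 110 HFD cells with at least 0.5% Ppy had Isl1 at 179 and 203 CPM against 85.2 and 100 CPM in the rest, a relative log2 of 0.73 (0.55 to 0.90) and 0.66 (0.51 to 0.81). Nkx6-1 was lower in them, at -0.73 (-0.97 to -0.50) and -0.63 (-0.84 to -0.43), and so was Nkx2-2, at -0.85 (-1.29 to -0.46) and -0.60 (-0.92 to -0.32). The median depth of the Ppy-carrying beta cells was 13813 and 16778 UMIs, against 14674 and 16758.5 UMIs in the rest, and the part of doublets in these values was not tested.

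Genes that work with these factors were counted from lists, in beta cells and relative to the median gene. Of 33 other islet factors, 27 had at least 50 UMIs: 22 were above the median gene and 5 below, 8 past the threshold upward (14.3% of all genes) and 1 downward (20.7%), with a median of 0.16. Mlxipl, a glucose-responsive factor also called ChREBP, went from 86.1 to 155 CPM (0.65), Sox4, a factor of endocrine development, from 45.6 to 72.8 CPM (0.48), and Thra, a thyroid hormone receptor, from 15.7 to 23.5 CPM (0.39). Insm1, a zinc finger factor of endocrine cells, was at 110 and 114 CPM (-0.14), and Xbp1, of the unfolded protein response, at 102 and 100.1 CPM (-0.22).

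Among partners and corepressors 31 of 33 were measured, 20 above and 11 below, with 4 past the threshold upward (14.3% of all genes), 1 downward (20.7%) and a median of 0.16. Higher in the HFD library were Id2 (50.7 and 76.1 CPM, 0.39) and Id3 (26.2 and 45.04 CPM, 0.59), which block helix-loop-helix factors, the coactivator Ep300 (11.1 and 20.1 CPM, 0.67) and Bcl9 (21.2 and 31.3 CPM, 0.37). Pcbd1, a transcriptional cofactor, was lower, at 167 and 130 CPM (-0.55), while Aes, a Groucho-type corepressor, was at 288 and 301 CPM (-0.13). Of 13 factors of non-beta endocrine cells 6 were measured, with 4 above, 2 below, 3 past the threshold upward (14.3% of all genes) and a median of 0.32, on too few genes to describe the list. Peg3 was at 270 and 387 CPM (0.33) and Tox3 at 29.6 and 33.8 CPM (0.00).

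Known targets of the network were counted in the same way. Of 30 genes 29 were measured, 12 above and 17 below the median gene, 2 past the threshold upward (14.3% of all genes) and 8 downward (20.7% of all genes), with a median of -0.06. Ppp1r1a, a phosphatase inhibitor, went from 322 to 216 CPM (-0.77), Pcsk1, a convertase that processes proinsulin, from 53.8 to 37.0 CPM (-0.73), and Scg5, a granule protein that assists the convertases, from 502 to 356 CPM (-0.69). Iapp, the amylin gene, went from 77245 to 61755 CPM (-0.52), Trpm5, a cation channel, from 51.7 to 43.4 CPM (-0.45), Ucn3 from 252 to 218 CPM (-0.40) and G6pc2, a glucose-6-phosphatase, from 409 to 374 CPM (-0.32). Gjd2, the gap junction gene of beta cells, was higher, at 49.2 and 71.0 CPM (0.33). Ins1 was at 161306 and 197510 CPM (0.10) and Ins2 at 364171 and 336872 CPM (-0.31).

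Of 15 genes known to be silenced in mature beta cells only 5 had 50 UMIs in beta cells, 3 above and 2 below the median gene, 2 past the threshold upward (14.3% of all genes) and 1 downward (20.7%). Aldh1a3, raised in beta cells that lose identity, had 10 and 64 UMIs, but 53 of the 64 came from 1 cell. Ldha was at 1.83 and 2.08 CPM (0.00) and Zfp36l1 at 0.639 and 0.822 CPM (0.17).

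Transcripts that overlap the factors in the mouse annotation could share reads with them, since the counting strand is not stated in the sources used here. The antisense gene 2210019I11Rik at Pdx1 had 649 and 590 UMIs in beta cells, 19.7% of the Pdx1 count. At Pax6, Pax6os1 had 460 and 474 UMIs, 4.11% of the Pax6 count, and its relative log2 was 0.28. At Nkx2-2, 6430503K07Rik had 235 and 328 UMIs (9.47%), and at Neurod1, Cerkl had 669 and 715 (8.16%).

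As a description, the genes whose levels followed each factor most closely over 14 pools (7 cell types in 2 libraries) were ranked by Pearson's r of log2(CPM + 1) among 8428 genes. Pools of a library share its free RNA and handling. Pdx1 was closest to Wfs1 (0.969), Sez6l (0.950) and Dsp (0.927), and Nkx6-1 to Nrtn (0.928), Vdr (0.896) and Reep6 (0.878). Nkx2-2 was closest to Syt13 (0.970), Neurod1 to Camk2b (0.989), Pax6 to Zfhx2 (0.987), Foxa2 to Rimbp2 (0.988) and Rfx6 to Sgms2 (0.958).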

How the data were processed

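Islet cells of chow-fed and high-fat-fed mice were analysed from 1 deposited UMI count matrix per diet. The counts are whole numbers without normalization, made by the authors. The submitters' processing notes name Cell Ranger 2.1.0. Build, annotation, counting strand and the rule for keeping barcodes were not given in the sources used here. The libraries held 6509 barcodes with 89292222 UMIs (chow) and 4539 with 68544729 (HFD), and 45 barcodes occur in both.

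Barcodes under 500 genes or over 10% mitochondrial UMIs were removed (122 and 145). Scrublet in scanpy 1.11.5 marked 0.047% and 0.0228% as doublets at its automatic threshold, which had not worked, so scores in the top 5% were removed (278 and 194), leaving 6109 and 4200 cells. Cells were typed by hormone share. UMIs were summed per type and library. Ratios are log2 with 0.5 counts added, minus the median of genes with at least 50 summed UMIs. Differences past a log2 of 0.32 between diets or 2-fold between types are counted. Intervals are exact 95% Poisson or Clopper-Pearson and cover counting error only. The calculation was tested on simulated data. Shares of cells use 4000 UMIs drawn per cell.

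The members and gene lists were chosen with earlier results of these data known. All members are named; of other lists, the 3 genes with the highest CPM in beta cells and every gene past the diet threshold with at least 20 CPM in 1 library. For likeness, the 3 genes of highest r were taken per factor with at least 20 CPM, and Mnx1 was under that. A few genes that these rules name are not reported here.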

Additional observations from a re-analysis of the deposited data

Results flagged for a closer look

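Cells that met none of the type rules entered no comparison, yet they carried Pax6 RNA above the level in non-endocrine cells of the same libraries. The 62 such chow cells had 86 Pax6 UMIs, or 167 CPM (134 to 207), and the 63 HFD cells had 193 UMIs, or 333 CPM (288 to 384). Endothelial cells had 5.43 and 9.90 CPM. Of these cells, 16 and 18 had an insulin share between 10% and the 20% that defines a beta cell, and 13 and 20 had at least 5% Ppy. The source of the Pax6 RNA in them was not tested.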

How the results depend on the processing

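No paired analysis was possible because each diet has 1 library. The 7 factors above the median gene stayed 7 under every alternative tried except a denominator without hormone genes and plain CPM without centring, where all 9 were above 0. Those settings move every gene alike, by 0.17 and 0.19, so 68.5% and 70.1% of all genes lay above 0 there, and Pdx1 and Nkx6-1 remained below the median gene. The 3 past the threshold of 0.32 became 4 under them, against 30.6% and 33.1% of all genes, and 0 at a 1.5-fold threshold. The median of the factors, 0.09, was 0.26 without hormone genes in the denominator, 0.14 with cells thinned to 4000 UMIs, 0.16 with at least 40% insulin, 0.17 without Hspa1a or Hspa1b UMIs and 0.28 in plain CPM. Over 16 alternatives Pax6 ranged from 0.52 to 0.74, Foxa2 from 0.40 to 0.61, Rfx6 from 0.37 to 0.67, Pdx1 from -0.12 to 0.09 and Nkx6-1 from -0.18 to 0.04. Factors highest in beta cells were 3 (chow) and 4 (HFD) by CPM, 8 and 9 without hormone genes in the denominator, 2 and 5 with thinned cells, and 3 and 5 by the mean over cells. Mafa is in the CPM counts but had 0 UMIs in thinned beta cells, so the thinned counts cover another set of factors. The share of all genes highest in beta cells was counted in none of these settings. Plain CPM and the limit to cells of 10000 to 20000 UMIs were chosen after the data had been seen. Depth limits Rfx6 in PP cells, Mnx1 outside beta cells and Pdx1 in HFD alpha cells, each with under 20 UMIs, and Mafa everywhere.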
